A study of Mus musculus with 4 samples.

Results

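The presynaptic vesicle release machinery was followed here as a list of 50 genes, taken by symbol from a table of 24411 genes. It holds 12 calcium sensors and related vesicle-bound proteins, 7 SNARE proteins and factors that recycle them, 4 complexins, 11 vesicle proteins, 11 active zone and priming proteins and 5 endocytosis proteins. All 50 symbols were in the table. Cplx3 and Cplx4 had too few counts to be tested, which left 48. RNA was sequenced from mouse cochlear tissue at postnatal day 7, with 2 pools of Otof homozygous knockout mice and 2 pools of Otof heterozygous mice. Each pool combined both cochleas of 2 to 3 pups, so a value is an average over several animals. The heterozygous mice carry a copy of the same knockout allele, and no wild-type animals were sequenced. The sources used here do not describe the Otof allele, the strain or the sex of the pups.

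Neurotransmitter release starts when vesicles dock at the active zone, a protein scaffold of the presynaptic membrane. A vesicle SNARE and the plasma membrane SNAREs then zip into a bundle that pulls the membranes together, complexins hold and assist that bundle, and a synaptotagmin triggers fusion when calcium enters. Vesicle membrane is afterwards retrieved by endocytosis. The ribbon synapse of the inner hair cell uses otoferlin, the product of Otof, as a calcium sensor, whereas the spiral ganglion neurons that receive its signal carry the conventional machinery to their own terminals in the brainstem. The study asked how the loss of hair cell release bears on developing spiral ganglion neurons.

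The libraries held 31509349 to 38090726 estimated counts. Levels are given as CPM, counts divided by the TMM-scaled library size and put on the usual common scale, and 3 counts in a library came to 0.0776 to 0.0944 CPM, which covers counting error only. Otof itself stood at 0.13 and 0.28 CPM in the homozygous pools, against 2.42 and 2.61 CPM in the heterozygous pools, so the genotype labels held. Several defining hair cell genes were scarce in the tissue of every pool. Pou4f3, a hair cell transcription factor, had 0 CPM in both homozygous pools and 0.197 and 0 CPM in the heterozygous pools, and 12 of the 22 listed hair cell markers were too low to be tested. Others had higher counts. Myo7a, an unconventional myosin of hair cells, had 31.2 and 45.4 CPM in the homozygous pools and 33.6 and 46.1 CPM in the heterozygous pools. Slc17a8, the glutamate transporter of inner hair cells, had 14.2 and 15.4 CPM in the homozygous pools and 13.2 and 6.83 CPM in the heterozygous pools. Of the 10 markers tested, 7 were lower and 3 higher in the homozygous pools. By DESeq2, Pcdh15 was lower (log2 fold change -1.18, adjusted p = 0.0469) and Espn higher (0.56, adjusted p = 0.0386). Which cells gave rise to these counts was not tested. Xist, which is transcribed only with a second X chromosome, was counted 2 times in homozygous replicate 1 and 19085 times in homozygous replicate 2, against 5771 and 6733 times in the heterozygous pools, so the homozygous pools differed in sex make-up.

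Most release genes had lower levels in the homozygous pools, with a few clear exceptions. Under edgeR's quasi-likelihood test, the main test, 0 of the 48 genes passed an adjusted p of 0.05, and the smallest was 0.105. Of all genes 0% passed it, and the smallest was 0.101. Rose and fell therefore describe DESeq2, the tool the study names, at an adjusted p under 0.05. By DESeq2 11 of the 48 genes changed, where 4.46% of all 15359 genes tested did. Of these 9 fell, namely Sv2c, Snap25, Syt2, Vamp1, Cplx1, Sh3gl2, Rab3c, Syp and Rab3a, where 3.41% of all genes fell. Rph3a and Rims3 rose, 2 of 48, where 1.05% of all genes rose. Without adjustment, 20 release genes had an edgeR p under 0.05, beside 13.3% of all genes. Of these 16 were lower, beside 8.91% of all genes, and 4 were higher, beside 4.36%. Homozygous and heterozygous pools were fully apart for 30 of the 48 genes, beside 46.1% of all genes. These were 23 lower genes, beside 24.5% of all genes, and 7 higher genes, beside 21.6%. The median log2 fold change of homozygous over heterozygous pools was -0.26 for the release genes and 0.01 for all genes tested. It was -0.12 without homozygous replicate 2. In these whole-tissue libraries, fewer neurons and less RNA per neuron cannot be told apart.

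**Figure D1:**
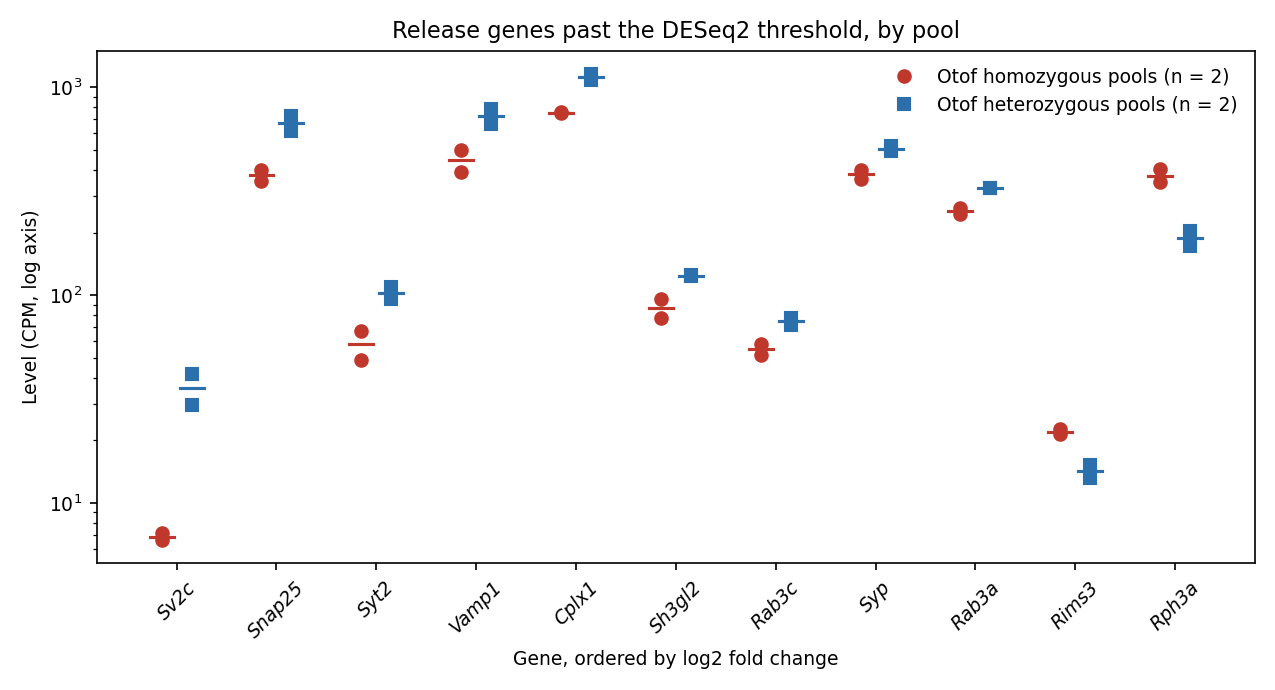
Level in CPM on a log axis for each of the 11 release genes past the DESeq2 threshold. Circles are homozygous pools, squares heterozygous pools, and lines their means (n = 2 each); 9 genes lie lower in the homozygous pools, Sv2c by the widest gap, and Rims3 and Rph3a lie higher.

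The calls rested on few pools. Leaving out homozygous replicate 1 gave 14 release genes that fell and 1 that rose, beside 549 and 132 of all genes. Leaving out homozygous replicate 2 gave 6 and 2, beside 241 and 73 of all genes. Leaving out heterozygous replicate 1 gave 3 and 1, beside 124 and 93 of all genes, and leaving out heterozygous replicate 2 gave 3 and 1, beside 123 and 51. The counts of release genes that fell were high and low in the same fits as those of all genes. Sv2c, Snap25 and Rph3a were the 3 genes of 11 that kept their call in each of these fits. An exact permutation test of a single gene, 2 pools against 2, cannot go below a two-sided p of 0.333, so none was run.

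Marker lists of cell types did not all move the same way. Median log2 fold changes were below 0 for general neuronal, myelin, central glia and central neuron markers. They were also below 0 for muscle (-0.48), osteoclast (-0.24), hair cell (-0.18) and autonomic (-0.02) markers, with 6, 6, 10 and 3 genes tested. Medians were 0.45 for fibroblast and 0.05 for macrophage markers. Of 27 general neuronal markers that take no part in vesicle release, 14 fell and 1 rose by DESeq2, beside 3.41% and 1.05% of all genes. The median log2 fold change of these markers was -0.43. Their summed level was 9659 and 9194 CPM in the homozygous pools and 12730 and 12914 CPM in the heterozygous pools. The summed level of the release genes was 6620 and 5771 CPM in the homozygous pools and 7785 and 7622 CPM in the heterozygous pools. The release genes thus lay lower in the same pools as the general neuronal markers, and the part of neuronal content in each result was not tested. When libraries were scaled to the summed general neuronal markers, the median over all genes moved to 0.45 and that of the release genes to 0.17. That scaling shifts every gene by about the same amount. On that neuronal scale 2 release genes were lower by DESeq2, Sv2c and Snap25, beside 1.26% of all genes, and 11 higher, beside 51.9% of all genes. Of the 36 release genes below 0 under the usual scaling, 26 then lay above 0. Syt2, Vamp1 and Cplx1 then had log2 fold changes of -0.38, -0.27 and -0.13 and did not pass, and Rph3a and Rims3 stood at 1.44 and 1.08.

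The 14 central glia markers had a median log2 ratio to the heterozygous mean of -0.49 in homozygous replicate 1, against -1.74 in homozygous replicate 2. Their summed level was 2406 and 1343 CPM in the homozygous pools and 2916 and 3026 CPM in the heterozygous pools. Gjc3 was the largest part of it, at 567 and 606 CPM in the homozygous pools and 652 and 751 CPM in the heterozygous pools. How far the listed genes are restricted to central glia was not tested. The 9 central neuron markers other than Slc17a7 and Barhl1, which cochlear cells also use, summed to 9.18 and 7.82 CPM in the homozygous pools and 24.4 and 37.7 CPM in the heterozygous pools. Most of that sum came from Cbln1 and Cbln3. Cbln1 had 4.71 and 3.68 CPM in the homozygous pools, against 11.3 and 21.2 CPM in the heterozygous pools. Cbln3 had 2.12 and 2.43 CPM, against 7.65 and 7.61 CPM. The other genes of this set had at most 1.95 CPM in any pool. Slc6a5 was at 0 in both homozygous pools, and Gabra6 was at 0 in homozygous replicate 2. Of 18 Schwann cell and myelin genes 10 fell and 0 rose. The 4 with a log2 fold change above 0 were Foxd3 (0.44), Erbb3 (0.30), Cdh19 (0.26) and Sox10 (0.04). Of 9 fibroblast markers 5 rose and 0 fell. Of all genes 3.41% fell and 1.05% rose. The same median ratio for the release genes was -0.13 in homozygous replicate 1, against -0.36 in homozygous replicate 2. It was thus wider in the pool where the median of the central glia markers was lower. What these cell types contribute to the release genes was not tested.

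**Figure D2:**
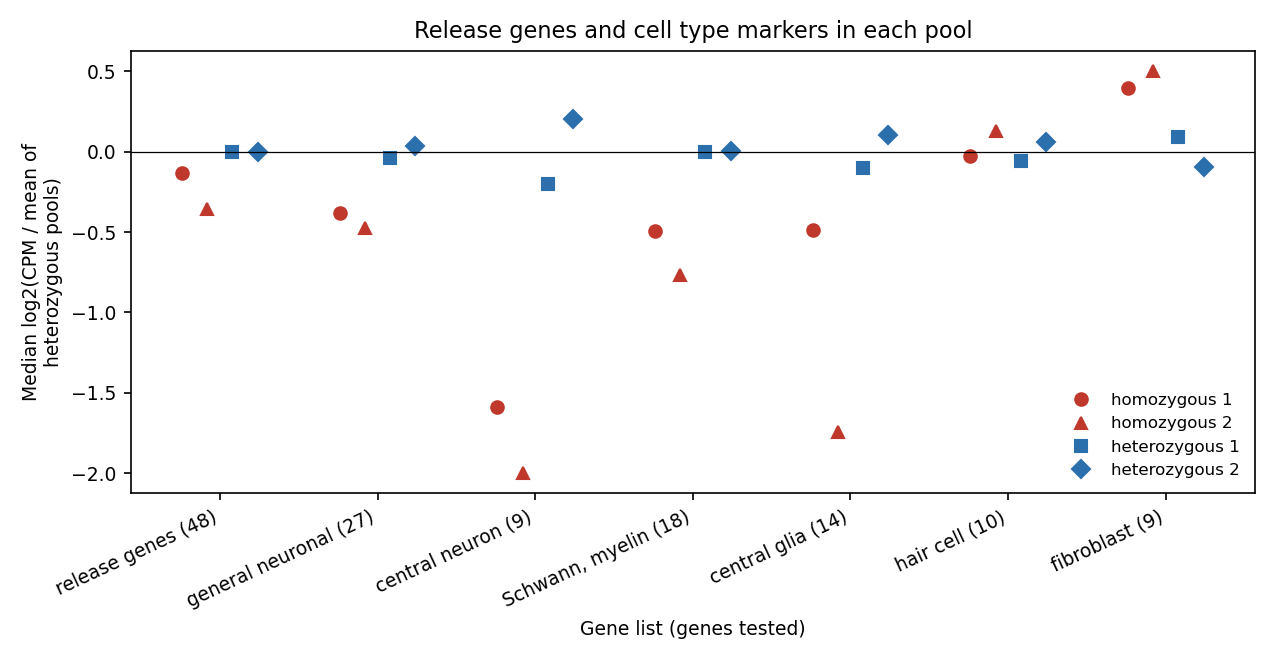
Median log2 ratio of each pool to the mean of the heterozygous pools, for the tested genes of 7 lists. Release genes lie at -0.13 and -0.36 in the homozygous pools, and general neuronal markers lower than that. Central neuron and central glia markers lie lower still in both homozygous pools, and farther down in homozygous replicate 2. The tested central neuron list includes Slc17a7 and Barhl1, unlike the summed set in the text.

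Among the calcium sensors, Syt2 fell, Rph3a rose and 10 of 12 did not pass. Syt2, synaptotagmin-2, is a fast trigger of release in auditory brainstem terminals. It had 67.2 and 48.9 CPM in the homozygous pools, against 109 and 95.7 CPM in the heterozygous pools. The groups did not overlap, and the log2 fold change was -0.82 ± 0.17 (standard error, as for all fold changes that follow; 2 pools per genotype), with an adjusted p of 0.00215 by DESeq2 and 0.198 by edgeR. The DESeq2 call was lost without heterozygous replicate 1 (adjusted p = 0.256) and without heterozygous replicate 2 (0.0566). Syt1, the fast sensor of forebrain synapses, had 11.1 and 19.0 CPM in the homozygous pools, against 32.8 and 22.3 CPM in the heterozygous pools. Its pools were also apart, but spread widely within a genotype, and its log2 fold change of -0.88 ± 0.32 did not pass (DESeq2 adjusted p = 0.132).

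Rph3a encodes rabphilin-3A, which binds Rab3 on the vesicle and also binds SNAP-25. Its level was 403 and 349.8 CPM in the homozygous pools, against 173 and 204 CPM in the heterozygous pools. Both homozygous pools were well above both heterozygous pools, with a log2 fold change of 0.996 ± 0.13. The adjusted p was 8.29e-10 by DESeq2 and 0.117 by edgeR, and 0.00205 at most by DESeq2 with any pool left out. Rph3a lies on chromosome 5 (120940499 to 121010092, minus strand), the chromosome of Otof, 90.6 Mb away from it. Cplx1, Stx1a, Pclo and Rimbp2 lie on the same chromosome, 78.1, 105.0, 15.7 and 98.4 Mb from Otof. Syt7, a slow, high-affinity sensor linked to vesicle replenishment, had 301 and 257 CPM in the homozygous pools, against 211 and 218 CPM in the heterozygous pools. These groups were apart as well, and the log2 fold change of 0.38 ± 0.11 just missed the threshold (DESeq2 adjusted p = 0.0524).

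Syt11, which does not bind calcium as the fast sensors do, was the synaptotagmin of highest level at 482 and 355 CPM in the homozygous pools, against 517 and 508 CPM in the heterozygous pools. Its log2 fold change of -0.29 ± 0.17 did not pass (DESeq2 adjusted p = 0.576). Syt3 and Syt4 overlapped between genotypes, with 79.3 and 60.1 CPM for Syt3 in the homozygous pools and 76.5 and 70.1 CPM in the heterozygous pools. The low-level sensors Syt5, Syt6, Syt9, Doc2a and Doc2b lay between 0.44 and 7.88 CPM in every pool, and 0 of these 5 passed either test.

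Of the 7 SNARE genes and recycling factors, Snap25 and Vamp1 fell and 5 did not pass. Snap25 encodes a plasma membrane SNARE of every fast synapse. It had 399.9 and 355 CPM in the homozygous pools, against 732 and 619 CPM in the heterozygous pools. The lower heterozygous pool was still far above the higher homozygous pool. The log2 fold change was -0.84 ± 0.13, with an adjusted p of 7.37e-07 by DESeq2 and 0.135 by edgeR, and the DESeq2 value was at most 0.0249 with any pool left out. On the scale of the general neuronal markers Snap25 had a weaker log2 fold change of -0.40 ± 0.12 (edgeR adjusted p = 0.0484). That scale put 51.9% of all genes higher by DESeq2, so this adjusted p cannot be compared with the one above.

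The vesicle SNAREs Vamp1 and Vamp2 parted. Vamp1, synaptobrevin-1, had 498 and 392 CPM in the homozygous pools, against 785 and 669 CPM in the heterozygous pools, a log2 fold change of -0.71 ± 0.16. The adjusted p was 0.00164 by DESeq2 and 0.213 by edgeR, and the DESeq2 call was lost without heterozygous replicate 1 (0.261). Vamp2, synaptobrevin-2, was at 275 and 264 CPM in the homozygous pools, against 228 and 257 CPM in the heterozygous pools, and its log2 fold change of 0.15 ± 0.10 did not pass (DESeq2 adjusted p = 0.699). Stx1a, the partner SNARE syntaxin-1A, had 16.6 and 18.4 CPM in the homozygous pools, against 12.7 and 14.4 CPM in the heterozygous pools. The Stx1a pools did not overlap, and its log2 fold change of 0.37 ± 0.14 did not pass (DESeq2 adjusted p = 0.417).

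Napb, a SNAP protein that lets the ATPase NSF take used SNARE bundles apart, had 77.2 and 64.5 CPM in the homozygous pools, against 105 and 92.1 CPM in the heterozygous pools (log2 fold change -0.48 ± 0.12, DESeq2 adjusted p = 0.0674). Its ubiquitous relative Napa overlapped between genotypes, at 184 and 166 CPM in the homozygous pools and 172 and 173 CPM in the heterozygous pools. Nsf overlapped too, with 262 and 182 CPM in the homozygous pools and 280.4 and 253 CPM in the heterozygous pools.

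Cplx1 was the release gene of highest level per length in both genotypes. Complexin-1 acts at the brainstem terminals of auditory nerve fibres. Its mean level was 344 CPM per kb of merged exons in the homozygous pools and 513 CPM per kb in the heterozygous pools, ahead of Rab3a at 114 and 147 CPM per kb. In CPM it had 758 and 749 in the homozygous pools, against 1088 and 1158 in the heterozygous pools. The spread within each genotype was small beside the gap, and the log2 fold change was -0.58 ± 0.10, with an adjusted p of 1.07e-07 by DESeq2 and 0.153 by edgeR. Without heterozygous replicate 2 the DESeq2 call was lost (0.145). Cplx2 had 61.2 and 105 CPM in the homozygous pools, against 66.3 and 115 CPM in the heterozygous pools, so that replicates differed more than genotypes. Cplx3 and Cplx4, complexins of ribbon synapses in the retina, had 0 to 4 and 0 to 10 counts in a library and no fold is given.

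Of the 11 vesicle proteins 4 fell, Sv2c, Rab3c, Syp and Rab3a, and 0 rose. All 11 had a log2 fold change below 0, between -2.38 and -0.20, under the usual scaling, and on the neuronal scale 9 of them, Syp, Rab3a and Rab3c included, turned to above 0. SV2 proteins are glycoproteins of the vesicle membrane that bear on how vesicles are primed. Sv2c had 6.62 and 7.14 CPM in the homozygous pools, against 41.7 and 29.7 CPM in the heterozygous pools. Every homozygous value was far below every heterozygous value. The log2 fold change was -2.38 ± 0.20, the largest fall among the release genes, with an adjusted p of 1.91e-19 by DESeq2 and 0.105 by edgeR. It was -1.93 ± 0.21 on the neuronal scale, and DESeq2's adjusted p was at most 3.19e-07 with any pool left out. The summed level of the 9 central neuron markers above, most of it from Cbln1 and Cbln3, was also lower in both homozygous pools. The part of central neuron RNA in the Sv2c result was not tested.

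The other SV2 genes moved less. Sv2a, the most widespread of them, had 201 and 153 CPM in the homozygous pools, against 225 and 215 CPM in the heterozygous pools. Sv2b had 52.1 and 63.2 CPM in the homozygous pools, against 81.0 and 68.9 CPM in the heterozygous pools. Both were apart between genotypes but neither passed, with a DESeq2 adjusted p of 0.479 for Sv2a, and a log2 fold change of -0.38 ± 0.14 and an adjusted p of 0.287 for Sv2b.

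Syp, Rab3a and Rab3c fell by smaller amounts. Syp, synaptophysin, an abundant vesicle membrane protein, had 398 and 363 CPM in the homozygous pools, against 492 and 519 CPM in the heterozygous pools (log2 fold change -0.41 ± 0.10, DESeq2 adjusted p = 0.00709). Rab3a, the GTPase that ties vesicles to the active zone, had 262 and 247 CPM in the homozygous pools, against 326 and 328 CPM in the heterozygous pools (-0.36 ± 0.08, DESeq2 adjusted p = 0.00999). Rab3c, its relative, had 58.3 and 51.7 CPM in the homozygous pools, against 71.6 and 77.8 CPM in the heterozygous pools (-0.44 ± 0.10, DESeq2 adjusted p = 0.0401). In each of these 3 genes the pools did not overlap. Rab3a and Rab3c lost the DESeq2 call with any single pool left out (adjusted p of 0.0519 to 0.954 and of 0.0755 to 1), and Syp lost it without homozygous replicate 2 (0.235), heterozygous replicate 1 (0.429) and heterozygous replicate 2 (0.928).

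The synapsins, which tether vesicles to each other and to actin, did not pass. Syn2 came nearest, with 44.1 and 42.2 CPM in the homozygous pools, against 54.4 and 67.7 CPM in the heterozygous pools (log2 fold change -0.50 ± 0.13, DESeq2 adjusted p = 0.0544). Syn1, on the X chromosome like Syp, had 162 and 137 CPM in the homozygous pools and 167 and 175 CPM in the heterozygous pools. The synaptogyrins Syngr1 and Syngr3 did not pass, and the pools overlapped for Syngr1.

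**Figure D3:**
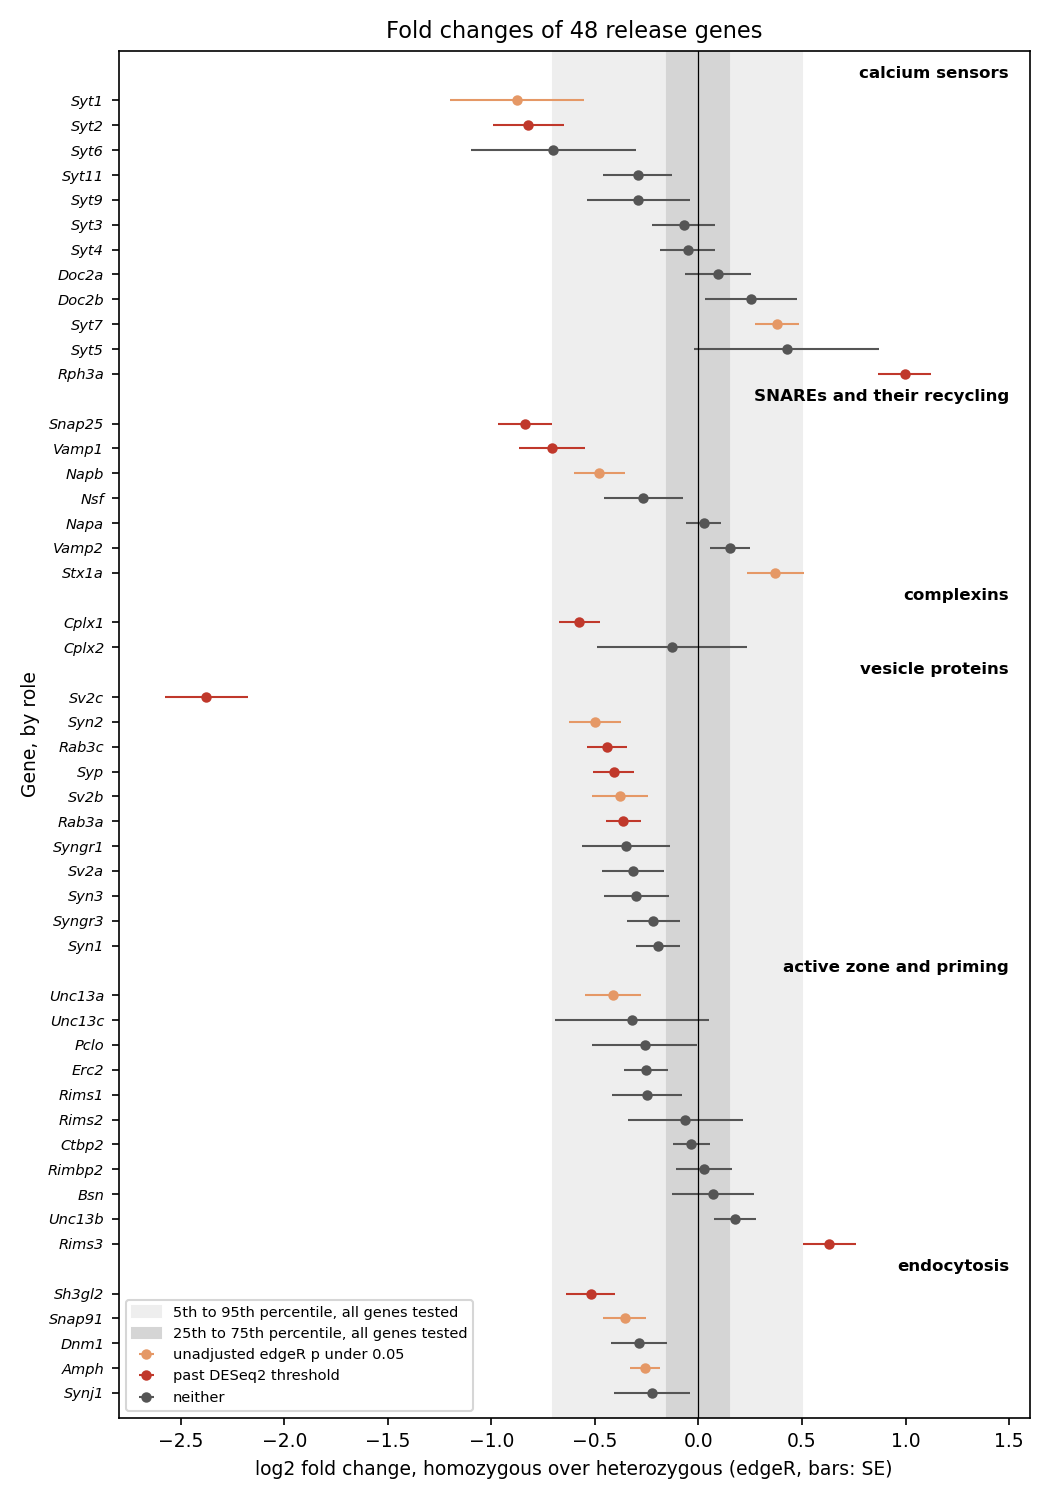
log2 fold change of homozygous over heterozygous pools for the 48 tested release genes, by role, from edgeR with SE bars, on bands of the percentiles of all genes tested. The vesicle proteins and endocytosis genes all lie left of 0, Sv2c farthest, while active zone genes scatter around 0 with Rims3 to the right.

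Of the 11 active zone genes, Rims3 rose and 10 did not pass, with a median log2 fold change of -0.06. The scaffold genes Bsn and Pclo, whose products bassoon and piccolo organise the active zone, overlapped between genotypes. Bsn had 53.1 and 37.5 CPM in the homozygous pools and 47.4 and 38.9 CPM in the heterozygous pools, and Pclo had 28.4 and 17.5 CPM in the homozygous pools and 29.9 and 25.2 CPM in the heterozygous pools. Rims1, Rims2 and Rimbp2, which place vesicles near calcium channels, overlapped as well.

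Rims3 encodes a short RIM protein that lacks most domains of the long RIMs. It had 22.7 and 21.4 CPM in the homozygous pools, against 15.3 and 13.2 CPM in the heterozygous pools. The 2 groups were apart, with a log2 fold change of 0.63 ± 0.13 and an adjusted p of 0.0212 by DESeq2 and 0.191 by edgeR. The DESeq2 call was lost with any single pool left out, at adjusted p of 0.478 and 0.423 without homozygous replicates 1 and 2, and of 0.359 and 1 without heterozygous replicates 1 and 2.

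Unc13a encodes Munc13-1, a factor that primes docked vesicles. It had 37.6 and 30.6 CPM in the homozygous pools, against 48.1 and 42.7 CPM in the heterozygous pools, and did not pass (log2 fold change -0.41 ± 0.13, DESeq2 adjusted p = 0.266). Unc13b, which encodes Munc13-2, had 62.8 and 64.9 CPM in the homozygous pools, against 61.0 and 51.9 CPM in the heterozygous pools (0.18 ± 0.10, DESeq2 adjusted p = 0.785). Ctbp2 gives rise to both a transcriptional repressor and RIBEYE, the main protein of the hair cell ribbon, and gene counts do not separate these products. Its 46.1 and 51.0 CPM in the homozygous pools overlapped with 48.3 and 51.2 CPM in the heterozygous pools (log2 fold change -0.03 ± 0.09, DESeq2 adjusted p = 0.998).

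All 5 endocytosis genes had a log2 fold change below 0, between -0.52 and -0.22, and Sh3gl2 fell. On the neuronal scale Snap91, Dnm1, Amph and Synj1 turned to above 0. Sh3gl2, endophilin-A1, which bends membrane at the neck of the forming vesicle, had 95.8 and 77.4 CPM in the homozygous pools, against 123 and 125 CPM in the heterozygous pools. Its pools did not overlap, with a log2 fold change of -0.52 ± 0.12 and an adjusted p of 0.0224 by DESeq2 and 0.213 by edgeR. The DESeq2 call was lost without homozygous replicate 2 (0.374) and without heterozygous replicates 1 and 2 (0.502 and 0.720).

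Snap91, the neuronal clathrin adaptor AP180, had 159 and 136 CPM in the homozygous pools, against 191 and 187 CPM in the heterozygous pools (log2 fold change -0.36 ± 0.10, DESeq2 adjusted p = 0.131). Amph, amphiphysin, had 121 and 114 CPM in the homozygous pools, against 141 and 141 CPM in the heterozygous pools (-0.26 ± 0.07, DESeq2 adjusted p = 0.223). Dnm1, the dynamin that pinches vesicles off, had 429 and 343 CPM in the homozygous pools, against 486 and 457 CPM in the heterozygous pools (-0.29 ± 0.14, DESeq2 adjusted p = 0.460). None of these 3 overlapped between genotypes, yet none passed.

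**Figure D4:**
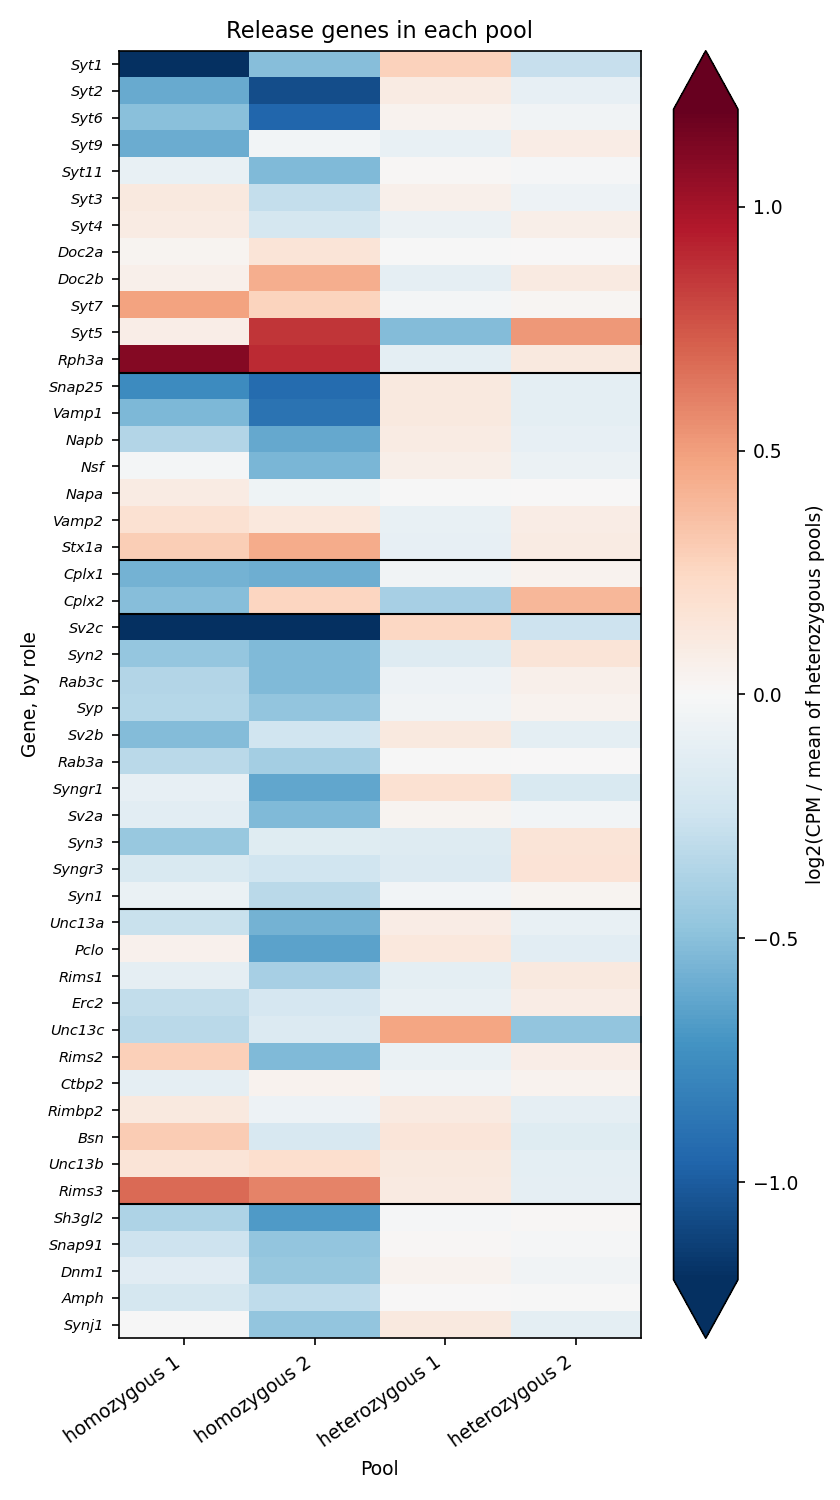
log2 ratio of each pool's CPM to the mean of the heterozygous pools, for the 48 tested release genes (rows, by role) in the 4 pools (columns). Sv2c is dark blue in both homozygous pools, past the end of the colour scale, Rph3a and Rims3 are red in both, and Syt5 and Cplx2 differ more between replicates than between genotypes.

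Ratios between release genes within a pool do not depend on how libraries are scaled. The 6 pairs given here were chosen after their values were seen, so they are a description, and levels are per kb of merged exons. The ratio of Vamp1 to Vamp2 was 0.678 and 0.557 in the homozygous pools, against 1.29 and 0.977 in the heterozygous pools. That of Syt2 to Syt7 was 0.219 and 0.186 in the homozygous pools, against 0.507 and 0.432 in the heterozygous pools. Both ratios were lower in each homozygous pool than in any heterozygous pool. For Snap25 to Stx1a the ratio was 9.48 and 7.57 in the homozygous pools, against 22.7 and 16.9 in the heterozygous pools. Sv2c to Sv2a stood at 0.0157 and 0.0223 in the homozygous pools, against 0.0884 and 0.066 in the heterozygous pools. Rph3a to Rab3a, the GTPase it binds, was 0.739 and 0.681 in the homozygous pools, against 0.255 and 0.299 in the heterozygous pools. The pools overlapped only for Cplx1 to Cplx2, at 27.9 and 16.1 in the homozygous pools and 36.9 and 22.7 in the heterozygous pools.

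**Figure D5:**
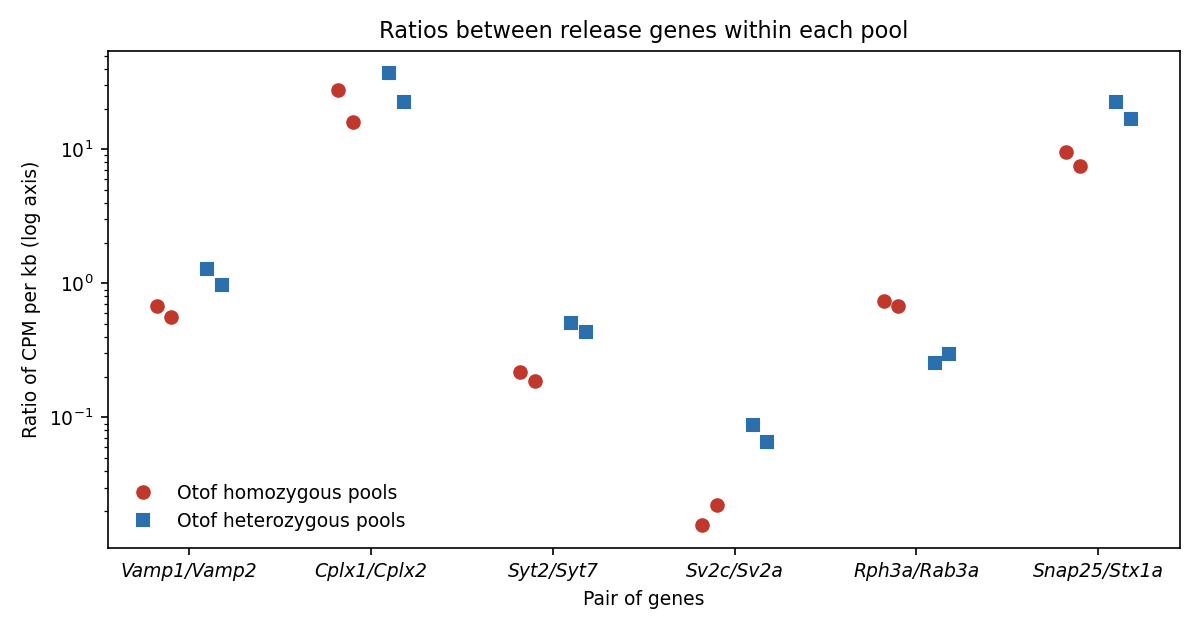
Ratio of CPM per kb between 2 release genes in each pool, on a log axis, with homozygous pools as circles and heterozygous pools as squares. Vamp1/Vamp2, Syt2/Syt7, Sv2c/Sv2a and Snap25/Stx1a are lower and Rph3a/Rab3a is higher in both homozygous pools, and Cplx1/Cplx2 overlaps.

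The promoters of genes called in each direction are shown so that their base composition and short motifs can be compared. RefSeq windows on GRCm38.p6, from 250 bases before to 50 after the gene start, matched 39 of the 50 genes with 52 windows. Cplx1 and Sv2c fell, and Rph3a and Rims3 rose. Capitals mark a GC box (GGGCGG) or a CRE core site (TGACG) on either strand, 5′ to 3′ along the gene.
Cplx1 (chr5:108549978-108550277, minus strand): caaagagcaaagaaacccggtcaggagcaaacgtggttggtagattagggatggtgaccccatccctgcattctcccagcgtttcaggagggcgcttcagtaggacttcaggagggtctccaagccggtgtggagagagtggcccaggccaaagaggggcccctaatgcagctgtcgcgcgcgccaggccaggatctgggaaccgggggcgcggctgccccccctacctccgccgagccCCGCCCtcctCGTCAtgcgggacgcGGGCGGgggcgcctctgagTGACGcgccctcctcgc
Sv2c (chr13:96132528-96132827, minus strand): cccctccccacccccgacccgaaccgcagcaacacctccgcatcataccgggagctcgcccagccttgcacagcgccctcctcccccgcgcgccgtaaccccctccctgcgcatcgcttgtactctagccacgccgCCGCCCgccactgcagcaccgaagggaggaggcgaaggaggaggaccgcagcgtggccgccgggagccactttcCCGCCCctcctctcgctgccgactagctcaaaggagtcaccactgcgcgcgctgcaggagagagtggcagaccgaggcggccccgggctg
Rph3a (chr5:121010043-121010342, minus strand): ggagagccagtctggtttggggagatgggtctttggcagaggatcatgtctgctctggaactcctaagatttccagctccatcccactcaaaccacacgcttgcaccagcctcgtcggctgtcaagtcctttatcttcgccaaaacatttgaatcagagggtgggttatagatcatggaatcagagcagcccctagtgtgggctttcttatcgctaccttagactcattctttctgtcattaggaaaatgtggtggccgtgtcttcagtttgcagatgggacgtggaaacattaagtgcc
Rims3 (chr4:120854549-120854848, plus strand): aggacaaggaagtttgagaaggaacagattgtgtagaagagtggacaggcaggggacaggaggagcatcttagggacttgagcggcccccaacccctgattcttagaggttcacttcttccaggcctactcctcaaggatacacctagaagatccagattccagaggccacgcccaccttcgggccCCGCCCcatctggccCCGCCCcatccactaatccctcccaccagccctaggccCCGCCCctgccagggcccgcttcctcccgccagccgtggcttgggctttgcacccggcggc
Cplx1 holds 2 GC boxes and 2 CRE core sites, Sv2c holds 2 GC boxes, Rims3 holds 3 GC boxes, and this Rph3a window, at the annotated gene start, holds none of these letters. Rph3a has 2 further windows, of which 1 holds a GC box. A GC box was found in 61.5% of the 52 windows of release genes and in 35.7% of all 32851 windows. Median GC content was 62.5% in the windows of release genes and 52.7% in all windows, and the part of base composition in the GC box share was not tested. CRE core sites were in 17.3% of the release gene windows and 20.8% of all windows. The full CRE (TGACGTCA), which contains the core site, was in 5.77% of the release gene windows, those of Napa, Sh3gl2 and Syn1, and in 1.79% of all windows. The NRF1 motif was in 1.92%, the window of Bsn, and in 0.971% of all windows. A match is not a binding site.

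Other genes of the release pathway were followed in a list of 85, of which 80 were tested. By DESeq2 9 fell and 2 rose, beside 3.41% and 1.05% of all genes. Of the 80, 0 passed edgeR's adjusted p, and the median log2 fold change was -0.09. Stx3, the syntaxin of ribbon synapses in the retina, overlapped, with 10.2 and 7.48 CPM in the homozygous pools and 8.60 and 10.03 CPM in the heterozygous pools.

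Sncb, beta-synuclein, a presynaptic protein, was 104 and 95.9 CPM in the homozygous pools, against 179 and 177 CPM in the heterozygous pools (log2 fold change -0.83 ± 0.08, DESeq2 adjusted p = 5.91e-11). Ston1, Ppfia4, Lin7b, Snph and Pacsin1 also fell, with log2 fold changes of -0.61 for Ston1, -0.48 for Ppfia4, -1.11 for Lin7b, -0.53 for Snph and -0.69 for Pacsin1. Cadps, a priming factor, had -0.45 ± 0.11 (DESeq2 adjusted p = 0.0452). The genes that rose were Synpr and Lin7a. Synpr, synaptoporin, a vesicle protein akin to synaptophysin, had 11.3 and 15.5 CPM in the homozygous pools, against 3.12 and 7.27 CPM in the heterozygous pools (log2 fold change 1.37 ± 0.43, DESeq2 adjusted p = 0.0400). Lin7a, a scaffold protein, had 65.4 and 54.8 CPM in the homozygous pools, against 40.9 and 43.8 CPM in the heterozygous pools (0.51 ± 0.11, DESeq2 adjusted p = 0.0288). With any single pool left out, fewer of the 80 fell and fewer rose. The counts for all genes in those fits are given above.

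The authors' deposited table of changed genes, which lists 343 genes, holds 6 of the 50 release genes. In the authors' deposited table Sv2c has a log2 fold change of -2.37, Snap25 of -0.83, Syt2 of -0.81, Vamp1 of -0.70, Cplx1 of -0.57 and Rph3a of 1.01. Its name mentions that outliers were taken out, and which ones is not stated, and the authors' deposited table is not independent of the values above. Syp, Rab3a, Rab3c, Rims3 and Sh3gl2 are not in it. All genes of the authors' deposited table have an adjusted p of at most 0.00982 and an absolute log2 fold change of at least 0.50, and the 5 genes lie outside at least 1 of these limits in the present DESeq2 fit.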

How the data were processed

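Messenger RNA of 4 cochlear pools was selected with poly-T beads and reverse transcribed with random primers, per the labels' protocols. The authors deposited estimated counts per gene symbol. Salmon, DESeq2 and the build mm10 are named in the submitters' processing notes, and an nf-core pipeline per the labels. No version, annotation or strand setting is stated in the sources used here, so antisense reads may be counted with a gene. The authors also deposited a table of selected genes with a log2 fold change, its Wald score, a p-value and a mean signal.

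Values were rounded to whole counts. The quasi-likelihood test of edgeR 4.0.16 (R 4.3.3; TMM scaling, filterByExpr) was the main one, fitted on genotype alone and adjusted by Benjamini-Hochberg over 15359 genes. SE is that implied by the F statistic. DESeq2 1.42.0 (Wald test, default settings), the tool the study names, was run on the same genes as an alternative, and the verbs rose and fell rest on it because edgeR called 0 genes. Both were tested on simulated data. Gene positions and merged exon lengths come from GENCODE M21 on GRCm38, the build called mm10, and the authors' annotation may differ. Replicate pools were not one library deposited again (chi-square over its degrees of freedom 48.8 for homozygous and 29.6 for heterozygous pools). P-values measure the spread between pools only. Members, lists and pairs were chosen with earlier results of these data known, and no list was tested as a set. Full values are given for genes past DESeq2, for genes with an edgeR p under 0.05 and for the highest gene of each role; the other release genes named in the list of 85 are those past DESeq2 plus Stx3, and some of them are not reported here. Alternatives were other scalings, filters, a replicate block and leaving out each pool. With a pool left out, the remaining pool of that genotype is taken to vary as the other pair does.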

Additional observations from a re-analysis of the deposited data

How the results depend on the processing

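The median log2 fold change of the release genes lay between -0.37 and -0.12 with each pool left out, and was 0.17 with size factors from general neuronal markers. Under edgeR, 12 release genes passed an adjusted p with the neuronal size factors. Of these only Sv2c and Snap25 were lower, and the rest were higher. On that scale 51.9% of all genes were higher by DESeq2. With a replicate block 6 passed edgeR (Sv2c 0.0122, Syt2 0.0199, Snap25 0.0253, Rph3a 0.0298, Napb 0.0321 and Vamp1 0.0369), and 0 under the other scalings and filters. How many of all genes passed edgeR with the neuronal factors or the block is not reported here. The DESeq2 count that fell was 2 with neuronal size factors (193 of all genes), 3 to 14 with each pool left out (123 to 549 of all genes), and 0 by edgeR. The count that rose was 11 with neuronal size factors (7975 of all genes), 1 with the replicate block, 1 to 2 with each pool left out (51 to 132 of all genes), and 0 by edgeR. Of the other pathway genes, 2 fell and 43 rose with neuronal size factors, 1 rose with the replicate block, 1 to 6 fell and 0 to 1 rose with each pool left out, and 0 passed edgeR. With neuronal size factors the log2 fold change turned positive for 26 of 36 release genes, among them Syt11 (0.15), Sv2b (0.0666), Syp (0.0334 by edgeR, 0.0335 by DESeq2), Rab3a (0.0798 by both), Rab3c (0.0020 by edgeR, 0.0022 by DESeq2), Unc13a (0.0277), Ctbp2 (0.41), Snap91 (0.0852), Dnm1 (0.15) and Amph (0.19), by the construction of that scale, which moves all genes up. Ctbp2 also turned positive without homozygous replicate 1 (0.0271) and without heterozygous replicate 2 (0.0094), where its lowest value with a pool left out was -0.101; the cause was not tested. The labels do not say that replicate numbers pair the pools. Differences between replicates 1 and 2 correlated at r = 0.359 over genes between genotypes. With the block the DESeq2 call was lost for Rab3a (adjusted p = 0.0700), Rab3c (0.116) and Rims3 (0.103). With 2 pools a genotype, changes as small as those of Rab3a cannot be settled.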
